A study of Mus musculus with 23 samples.

Results

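The miR-17~92 cluster is a set of microRNAs (miRNAs) that are cut from 1 long transcript, Mir17hg. Of its mature products, 10 named in the count table were followed here in mouse liver to ask whether they move together. The members were chosen by name, from what is known of the transcript, with earlier results of these data known. All 10 were present among the 1218 mature miRNAs counted. Of the 10 members, 9 had enough reads to be tested, together with the rest of the 386 miRNAs kept by edgeR's expression filter, and miR-20a-3p was below it.

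Small RNA was sequenced from the liver of 23 male C57bl/6J mice of the F3 generation, and each mouse gave 1 library. The 8 reference mice belonged to the control lineage, bred on a growing diet with high oleic sunflower oil, and then ate a low-fat diet (labelled STD). The 8 HFoleic mice came from that same lineage and ate a high-fat, high-sucrose diet (labelled HFD), whereas the 7 HFepa mice ate this diet but came from the omega 3 lineage, bred on a growing diet with EPA-rich fish oil. No low-fat group of the omega 3 lineage was analysed here, so HFepa vs. reference differs in both diet and lineage.

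A cluster transcript of this kind is cut in the nucleus into hairpins by Drosha, and each hairpin is then cut by Dicer into a short duplex with a 5p and a 3p strand. Usually 1 strand is kept in an Argonaute protein and guides it to messenger RNAs through its seed, while the other strand is mostly lost. The miR-17~92 cluster is driven by Myc and E2F factors, favors cell division and survival, and is known as an oncogene in lymphoma and in liver cancer. Since the members share a promoter, a change in transcription alone would move them in parallel, whereas maturation and decay can differ for each of them.

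In the GRCm38 mouse genome, Mir17hg lies at chr14:115042879-115046727 on the plus strand. It is a non-coding gene whose exon 2, at chr14:115043271-115046727, holds all 6 hairpins of the cluster within 836 bases. In the order of the transcript these are Mir17 (chr14:115043671-115043754), Mir18 (chr14:115043851-115043946), Mir19a (chr14:115044000-115044081), Mir20a (chr14:115044157-115044263), Mir19b-1 (chr14:115044305-115044391) and Mir92-1 (chr14:115044427-115044506).

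The mature sequences of the 10 members are shown because their seeds sort them into families and because some of them are close enough to share reads. They are given 5′ to 3′ from RefSeq (GRCm38.p6), where all 10 were matched, and capitals mark the seed (bases 2 to 8).
mmu-miR-17-5p: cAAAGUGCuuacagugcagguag
mmu-miR-20a-5p: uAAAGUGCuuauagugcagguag
mmu-miR-18a-5p: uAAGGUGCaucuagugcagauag
mmu-miR-19a-3p: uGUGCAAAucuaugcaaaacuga
mmu-miR-19b-3p: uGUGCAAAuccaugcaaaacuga
mmu-miR-92a-3p: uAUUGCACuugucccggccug
mmu-miR-17-3p: aCUGCAGUgagggcacuuguag
mmu-miR-18a-3p: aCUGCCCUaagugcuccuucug
mmu-miR-20a-3p: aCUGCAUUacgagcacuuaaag
mmu-miR-92a-1-5p: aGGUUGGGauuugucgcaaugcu

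Among the guide strands, miR-17-5p and miR-20a-5p had the same seed and differed by 2 bases, and miR-19a-3p and miR-19b-3p had the same seed and differed by 1 base. Reads of such near-identical miRNAs can be split uncertainly between the members of a pair. The mature miR-19b-3p and miR-92a-3p are also encoded by hairpins of the paralog cluster on chromosome X, at chrX:52741991-52742013 and chrX:52741854-52741874 on the minus strand, so their reads cannot be told apart by locus. The other arms of the Mir19a and Mir19b-1 hairpins were close to absent, with miR-19a-5p at no more than 2.38 CPM (reads scaled to a common library total) and miR-19b-1-5p at no more than 1.05 CPM in any library.

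Library totals lay between 3725432 and 8139344 counts, and no 2 libraries of a group agreed within sampling noise (lowest chi-square per degree of freedom 31.95). Markers of other cell types set 3 reference libraries apart. In reference library 3 the hepatocyte list summed to 187922 CPM against 263686 to 357628 CPM in the 20 libraries other than 3, 4 and 5, while the biliary list summed to 1094 CPM against 150.8 to 333.2 CPM and the stellate cell list to 42501 CPM against 19867 to 30357 CPM. Reference library 4 had 214.9 CPM of muscle miRNAs against 1.42 to 12.2 CPM, and reference library 5 had 2021 CPM of pancreas miRNAs against 9.23 to 34.1 CPM. The leukocyte list was high in all 3, at 3731, 2745 and 2886 CPM in libraries 3, 4 and 5 against 1595 to 2517 CPM. All 5 hepatocyte markers were detected and tested, and none was called in any comparison. Nor was any of 5 red blood cell or 5 stellate cell markers. Of the other lists, 1 of 7 leukocyte markers (miR-150-5p) was lower in both high-fat groups, with log2 fold changes of -0.94 in HFoleic and -1.40 in HFepa, neither called with a term for library numbers 1 to 11 or 12 to 23 (-0.36 and -0.31). Among 2 endothelial markers miR-126a-5p was higher (0.25), and among 5 biliary markers miR-429-3p was lower (-1.22), both in HFepa vs. reference. With the term for library number, 0 of the 386 miRNAs were called in that comparison, so these 2 calls were lost as well. Values of miR-150-5p, miR-126a-5p and miR-429-3p without reference libraries 3, 4 and 5 are not given here. The only tested markers of muscle (miR-133a-3p) and pancreas (miR-375-3p) were lower in both high-fat groups, and those calls were lost without reference library 4 and without reference library 5, respectively. Fold changes of called members are therefore given with and without these 3 libraries, and those of the other members only with them. Since the tissue was sampled in bulk, fewer cells of a type and less RNA per cell cannot be told apart.

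The 10 members spanned mean reference levels from 1.39 CPM for miR-20a-3p to 6870 CPM for miR-92a-3p, on a scale of CPM normalized by TMM factors and not corrected for length (the members are 21 to 23 bases long). The highest was miR-92a-3p, a member of the miR-25/92 seed family, which held 89.6% ± 1.41 (SD, n = 23) of the reads of the cluster and ranked 25 among all miRNAs counted. It was followed by miR-19b-3p, the main oncogenic component of the cluster in B-cell lymphoma, with 6.53% ± 0.775 of the cluster reads. The other 8 members each held between 0.0228% and 1.37% on average. The sum of the cluster was 7621 ± 507 CPM in reference (n = 8), 6376 ± 1059 CPM in HFoleic (n = 8) and 6372 ± 1126 CPM in HFepa (n = 7), and almost all of it followed miR-92a-3p.

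After miR-92a-3p and miR-19b-3p, the order of levels in reference was miR-20a-5p (89.3 ± 8.25 CPM), miR-17-5p (76.4 ± 8.69 CPM), miR-19a-3p (46.9 ± 9.09 CPM) and miR-92a-1-5p (28.9 ± 6.34 CPM). The lowest were miR-17-3p (11.7 ± 2.06 CPM), miR-18a-5p (8.29 ± 3.19 CPM), miR-18a-3p (2.68 ± 0.653 CPM) and miR-20a-3p (1.39 ± 0.466 CPM). Neighbours in this order whose reference ranges overlapped were miR-20a-5p with miR-17-5p, miR-17-3p with miR-18a-5p, miR-18a-3p with miR-20a-3p, and miR-19a-3p with miR-92a-1-5p. Within a library, the log2 ratio of miR-20a-5p to miR-17-5p nevertheless lay between 0.07 and 0.39 in the 8 reference mice. The plot of levels by library shows this order and the spread of each member.

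**Figure D1:**
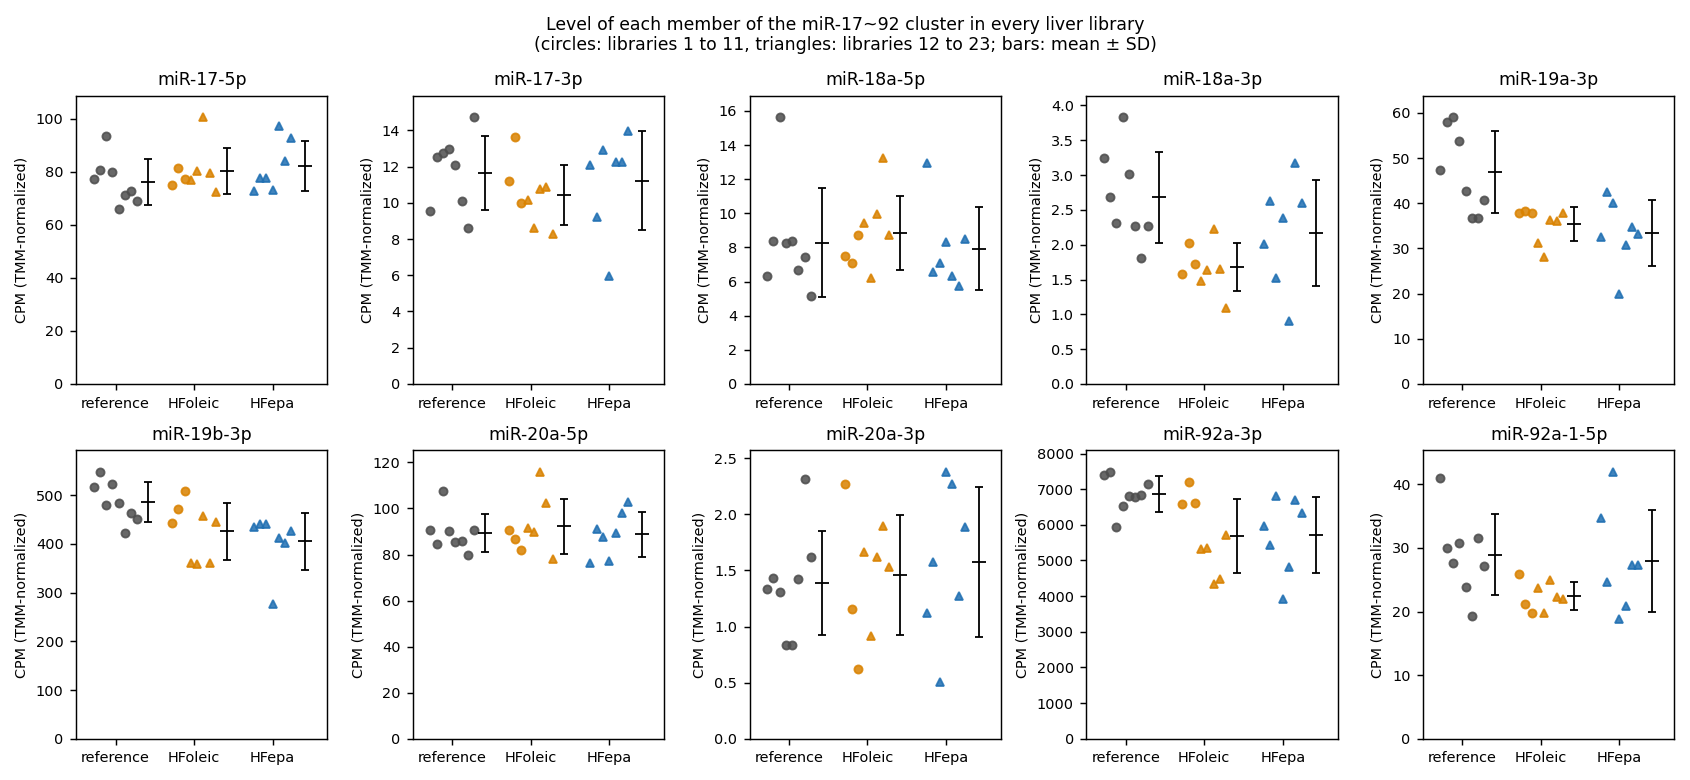
Level of each member in every library, in CPM normalized by TMM factors (y axis from 0), for the reference (n = 8), HFoleic (n = 8) and HFepa (n = 7) groups, where circles are libraries 1 to 11, triangles are libraries 12 to 23, and bars are mean ± SD. The 3 groups overlap for all 10 members, and miR-92a-3p shows a gap between the HFoleic circles (6577 to 7203 CPM) and triangles (4335 to 5707 CPM).

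The main question was whether the high-fat diet moved the members of the cluster together. In HFoleic vs. reference, which compares the diets within the control lineage, the passenger strand miR-18a-3p and the guide strand miR-19a-3p fell, and none of the other 7 tested members passed the test. Only miR-19a-3p was called in HFepa vs. reference, as lower, and the other 8 did not pass. No member was called as higher in any comparison. The guide strands with the miR-17 seed were close to the reference, with log2 fold changes of 0.08 for miR-17-5p and 0.04 for miR-20a-5p in HFoleic.

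The call of 2 members among 9 in HFoleic vs. reference stands beside 12.4% of all 386 tested miRNAs called by the same rule, and the call of 1 among 9 in HFepa vs. reference stands beside 15.8%. Those shares moved with single libraries, to 12 of 385 in HFoleic vs. reference without library 5 and to 32 of 392 in HFepa vs. reference without library 22. Calls required an adjusted p under 0.05 in edgeR's quasi-likelihood test together with a log2 fold change beyond 0.25 in either direction. A share of 1 or 2 members among 9 is near that of the whole table and is no result about the cluster. The median log2 fold change over the 9 tested members was -0.19 in HFoleic vs. reference, where all tested miRNAs had a median of -0.00, and -0.06 in HFepa vs. reference, where the median of all was also -0.06.

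Members such as miR-19b-3p and miR-92a-3p had negative differences in both high-fat groups, but only miR-19a-3p was called in both. This miRNA and miR-19b-3p form the whole miR-19 seed family of the table. Its level was 36.6 CPM at the lowest, 45.1 at the median and 59.1 at the highest in reference, 28.1, 37.0 and 38.3 CPM in HFoleic, and 19.99, 33.3 and 42.6 CPM in HFepa. All 8 HFoleic and all 7 HFepa libraries were below the reference median, but the groups overlapped, since 4 HFoleic and 5 HFepa libraries only were below the lowest reference library. The log2 fold change was -0.40 (SE 0.132, edgeR adjusted p = 0.0469) in HFoleic vs. reference, where it decreased by 24.4%, and -0.49 (SE 0.138, edgeR adjusted p = 0.0224) in HFepa vs. reference, where it decreased by 28.8%. The 2 comparisons share the reference libraries and are not independent.

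The first of these calls was close to the threshold. In HFoleic vs. reference it held in only 7 of 23 fits with 1 library left out, and was lost without library 1, 2, 3, 4, 5, 8, 10, 11, 12, 13, 14, 15, 16, 21, 22 or 23 (adjusted p up to 0.118, log2 fold change between -0.44 and -0.32). The call of miR-19a-3p in HFepa vs. reference held in 22 of 23 fits and was lost without library 22 (adjusted p = 0.0501, log2 fold change -0.47). Without reference libraries 3, 4 and 5 together, miR-19a-3p was not called in either comparison, with -0.34 (edgeR adjusted p = 0.190) in HFoleic and -0.42 (adjusted p = 0.0827) in HFepa. In that fit 2 and 32 of 390 miRNAs were called.

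The other call concerned miR-18a-3p, the less abundant strand of the Mir18 hairpin. Its level was 1.82, 2.50 and 3.84 CPM (lowest, median and highest) in reference, 1.09, 1.65 and 2.23 CPM in HFoleic, and 0.907, 2.38 and 3.17 CPM in HFepa. These values rest on 11 to 32 reads per reference library and 5 to 14 reads per HFoleic library, so counting error is large. All 8 HFoleic libraries were below the reference median and 6 were below the lowest reference library. The log2 fold change was -0.67 (SE 0.203, edgeR adjusted p = 0.0344) in HFoleic vs. reference, where it decreased by 37.0%. It was called in 15 of 23 fits with 1 library left out and lost without library 1, 2, 4, 5, 12, 13, 15 or 23 (adjusted p up to 0.0805, log2 fold change between -0.73 and -0.57), and without reference libraries 3, 4 and 5 it was -0.56 (adjusted p = 0.182). In HFepa vs. reference the log2 fold change of miR-18a-3p was -0.30 (adjusted p = 0.376).

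The guide strands miR-19b-3p and miR-92a-3p, which lie last in the transcript, had negative differences that did not pass. For miR-19b-3p, the levels were 422.7, 481.7 and 548.1 CPM in reference, 359.2, 444.5 and 509.0 CPM in HFoleic, and 276.5, 427.2 and 441.4 CPM in HFepa (lowest, median and highest). Of the high-fat libraries, 7 of 8 HFoleic and 7 of 7 HFepa were below the reference median, with log2 fold changes of -0.19 (edgeR adjusted p = 0.190) and -0.26 (adjusted p = 0.0679). For miR-92a-3p, the levels were 5929, 6833 and 7490 CPM in reference, 4335, 5524 and 7203 CPM in HFoleic, and 3909, 5960 and 6822 CPM in HFepa. The log2 fold changes of miR-92a-3p were -0.27 in both comparisons (edgeR adjusted p = 0.116 in HFoleic and 0.124 in HFepa), with 7 of 8 and 7 of 7 libraries below the reference median.

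The guide strands with the miR-17 seed had smaller differences, which did not pass. For miR-17-5p, the levels were 66.1, 75.1 and 93.7 CPM in reference, 72.5, 78.4 and 100.8 CPM in HFoleic, and 72.9, 77.9 and 97.2 CPM in HFepa, and its log2 fold changes were 0.08 (95% interval -0.10 to 0.25) and 0.11 (-0.07 to 0.29). For miR-20a-5p, the levels were 79.7, 88.2 and 107.5 CPM in reference, 78.1, 90.2 and 116.0 CPM in HFoleic, and 76.5, 89.3 and 102.7 CPM in HFepa. Its log2 fold changes were 0.04 (95% interval -0.13 to 0.22) and -0.01 (-0.19 to 0.17). The intervals of both members leave out a change as large as that of miR-19a-3p. For miR-18a-5p, whose reads were few, the log2 fold changes were 0.09 (-0.33 to 0.52) and -0.06 (-0.51 to 0.38), so neither direction nor size can be given.

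Of the remaining strands, miR-92a-1-5p lay at 28.9 ± 6.34 CPM in reference, 22.4 ± 2.26 CPM in HFoleic and 28.0 ± 8.04 CPM in HFepa. All 8 HFoleic libraries were below the reference median of miR-92a-1-5p, but its log2 fold change of -0.37 did not pass (edgeR adjusted p = 0.116), although it was called without reference library 6, at -0.43. The strand miR-17-3p lay at 11.7 ± 2.06, 10.4 ± 1.66 and 11.2 ± 2.74 CPM, with log2 fold changes of -0.16 and -0.05 that did not pass. The untested miR-20a-3p had 1.39 ± 0.466, 1.46 ± 0.536 and 1.57 ± 0.667 CPM in the 3 groups, from 2 to 14 reads per library.

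In HFepa vs. HFoleic, which compares the lineages under the same diet, edgeR called 0% of the 386 miRNAs and none of the 9 members, with 22 miRNAs at an unadjusted p under 0.05 (23 with DESeq2, which also called 0). None of the members was among those 22. The differences closest to the threshold were those of miR-92a-1-5p, at 0.32 (95% interval -0.00 to 0.64), and miR-18a-3p, at 0.37 (-0.09 to 0.82), both in log2. For miR-92a-3p the log2 difference was 0.00 (-0.23 to 0.24), and for miR-19a-3p it was -0.09 (-0.37 to 0.20). The lack of a call does not show that the lineages have equal levels.

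**Figure D2:**
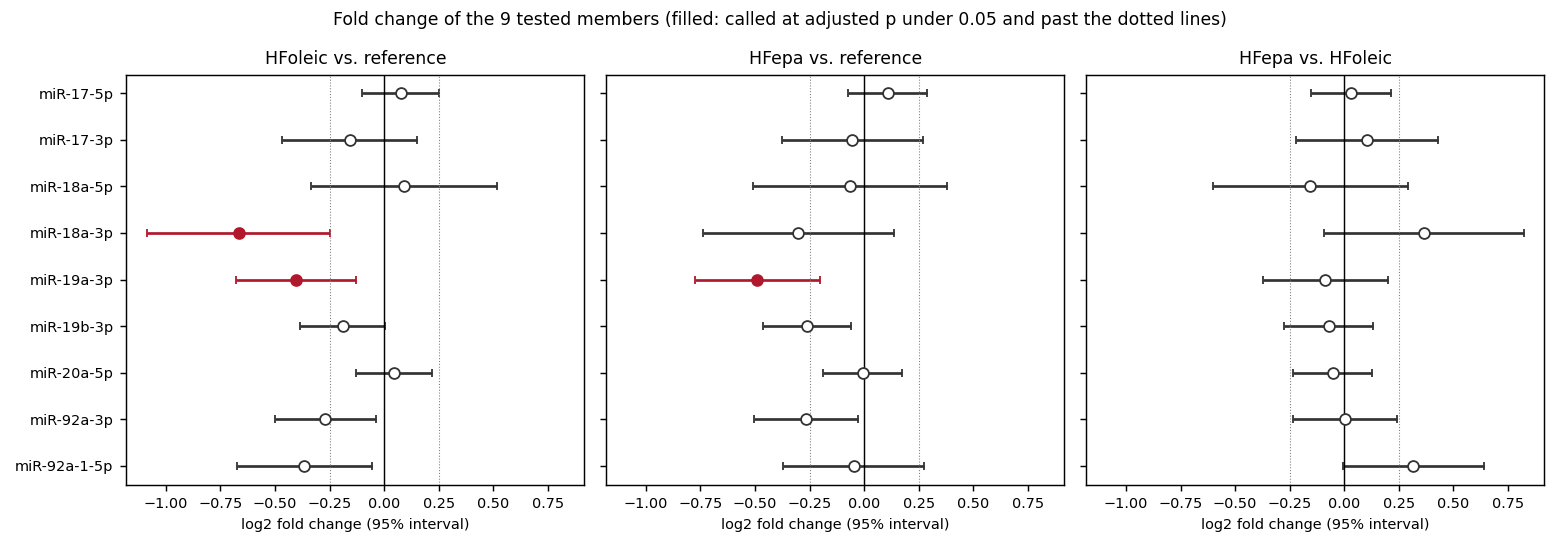
Log2 fold change of the 9 tested members in the 3 comparisons (x axis, with 95% intervals from edgeR's quasi-likelihood fit), where filled points passed the call and dotted lines mark a log2 fold change of 0.25 in each direction. The filled points are miR-18a-3p at -0.67 and miR-19a-3p at -0.40 in HFoleic vs. reference and miR-19a-3p at -0.49 in HFepa vs. reference.

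The values were also read beside the library numbers. Numbers 1 to 8 belong to reference, 9 to 15 and also 23 to HFoleic, and 16 to 22 to HFepa, and what the numbers stand for is not given in the labels. The labels mark no boundary between libraries 11 and 12. The split there was set for this report with earlier results of these data known, so a gap at it describes these libraries and does not show a batch. For miR-92a-3p, HFoleic libraries 9 to 11 lay at 6799 ± 351 CPM (n = 3), next to the reference mean of 6870 CPM, whereas HFoleic libraries 12 to 15 and 23 lay at 5036 ± 600 CPM (n = 5), with no overlap between these 2 sets of the same group. For miR-19b-3p the values were 474.5 ± 33.0 and 396.6 ± 50.4 CPM. For miR-19a-3p they were 38.0 ± 0.292 and 33.9 ± 4.05 CPM, both below the reference mean of 46.9 CPM, and for miR-18a-3p 1.77 ± 0.231 and 1.62 ± 0.410 CPM, both below 2.68 CPM.

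With libraries 1 to 11 alone, HFoleic differed from reference by a log2 fold change of -0.01 for miR-92a-3p, -0.03 for miR-19b-3p, -0.29 for miR-19a-3p (edgeR adjusted p = 0.662) and -0.58 for miR-18a-3p (adjusted p = 0.662). No member was called there, nor was any of the 409 miRNAs tested in that fit by edgeR, with 28 at an unadjusted p under 0.05. When the fit also held the library number (up to 11, or from 12) as a covariate, no member was called either, and miR-19a-3p had -0.30 (adjusted p = 0.503) in HFoleic and -0.32 (adjusted p = 0.777) in HFepa vs. reference, while miR-92a-3p had -0.01 and 0.17. No reference library is numbered above 11 and no HFepa library below 12, so diet and lineage cannot be told apart from library number in HFepa vs. reference.

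Whether the members changed by unequal amounts was asked directly, as the log2 ratio of each of 8 tested members to miR-17-5p, the first product of the transcript, within each library. An exact permutation test (two-sided) was used for each of 24 ratios, with unadjusted p, and in a ratio within a library the factor that scales the library cancels apart from the prior count. In HFoleic vs. reference, miR-19a-3p relative to miR-17-5p was lower by a log2 difference of -0.46 (exact p = 0.000622), with a range of -0.99 to -0.48 in reference and -1.51 to -0.93 in HFoleic. The same held for miR-18a-3p at -0.64 (exact p = 0.000311), for miR-92a-1-5p at -0.41 (exact p = 0.00482), for miR-19b-3p at -0.27 (exact p = 0.0183) and for miR-92a-3p at -0.36 (exact p = 0.0269). The ratios of miR-17-3p (-0.23, exact p = 0.0971), miR-18a-5p (0.05, exact p = 0.756) and miR-20a-5p (-0.04, exact p = 0.495) did not pass. These 5 of 8 ratios stand beside 21.8% of all 385 other tested miRNAs whose ratio to miR-17-5p passed the same test, 65 of these 84 being lower in HFoleic. All the ratios share 1 denominator and are not independent of each other.

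In HFepa vs. reference the ratios that passed were those of the miR-19 members and miR-92a-3p. The log2 difference was -0.60 for miR-19a-3p (exact p = 0.000932), -0.38 for miR-19b-3p (exact p = 0.00326) and -0.39 for miR-92a-3p (exact p = 0.0159), and in each of them 7 of 7 HFepa libraries were below the reference median. The other 5 ratios did not pass, including miR-20a-5p at -0.12 (exact p = 0.0741). In HFepa vs. HFoleic none of the 8 ratios passed, the largest being miR-92a-1-5p at 0.24 (exact p = 0.210). The 3 of 8 ratios that passed in HFepa vs. reference stand beside 20.5% of the 385 other tested miRNAs, and the 0 of 8 in HFepa vs. HFoleic beside 3.64%.

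The ratios that passed also passed without the 3 reference libraries that stand apart. Without them, the log2 difference relative to miR-17-5p in HFoleic vs. reference was -0.40 for miR-19a-3p (exact p = 0.00699), -0.57 for miR-18a-3p (exact p = 0.000777, the smallest possible), -0.29 for miR-19b-3p (exact p = 0.0186), -0.46 for miR-92a-3p (exact p = 0.0124) and -0.48 for miR-92a-1-5p (exact p = 0.00699). In HFepa vs. reference it was -0.54 for miR-19a-3p (exact p = 0.0164), -0.39 for miR-19b-3p (exact p = 0.00884) and -0.49 for miR-92a-3p (exact p = 0.00505). The ratio of miR-92a-3p in HFoleic vs. reference was lost without library 5, 8 or 14 (exact p up to 0.0536). Ratios that passed only when 1 library was left out were those of miR-17-3p in HFoleic vs. reference (without library 7 or 10, -0.28 each), miR-20a-5p in HFepa vs. reference (without library 2, -0.14), and, in HFepa vs. HFoleic, miR-18a-3p and miR-92a-1-5p without library 20 (0.43 and 0.34).

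Within libraries 1 to 11, the ratios split in a different way. The ratio to miR-17-5p was still lower in HFoleic for miR-19a-3p (-0.31, exact p = 0.0182) and miR-18a-3p (-0.52, exact p = 0.0303), but not for miR-19b-3p (-0.07, exact p = 0.545), miR-92a-3p (-0.05, exact p = 0.764) or miR-92a-1-5p (-0.39, exact p = 0.0848). With 3 HFoleic and 8 reference libraries the smallest p this test can give is 0.00606. Within libraries 12 to 23, no ratio passed between HFepa and HFoleic (exact p of 0.149 and above).

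**Figure D3:**
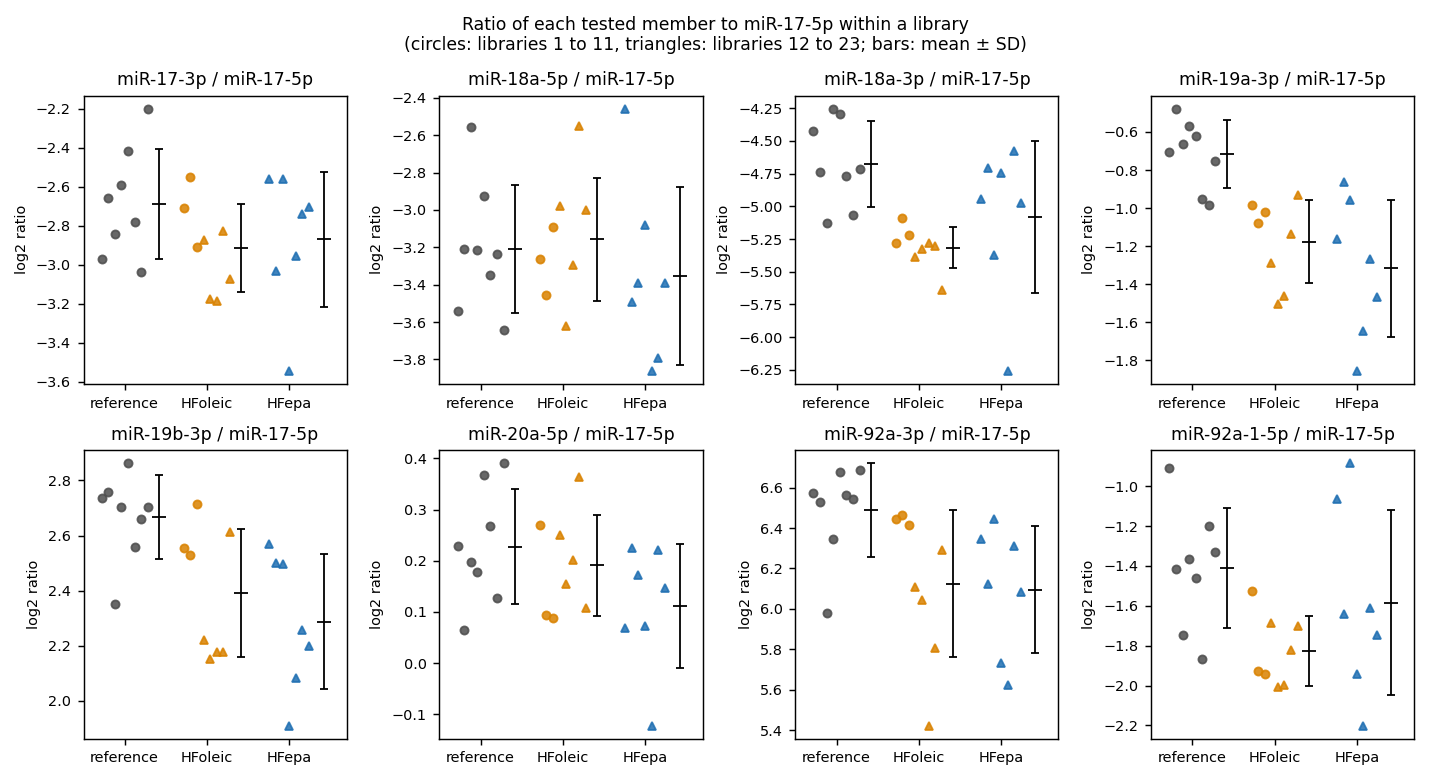
Log2 ratio of each of 8 tested members to miR-17-5p within a library (y axes with their own ranges, not from 0) for the reference (n = 8), HFoleic (n = 8) and HFepa (n = 7) groups, where circles are libraries 1 to 11, triangles are libraries 12 to 23, and bars are mean ± SD. For miR-19a-3p the reference mean of -0.72 lies above those of HFoleic at -1.18 and HFepa at -1.32, whereas for miR-20a-5p the means of 0.23, 0.19 and 0.11 lie close together.

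Both strands of a hairpin come from the same precursor, so their ratio removes transcription where both are encoded at that locus alone. This does not hold for Mir92-1, since miR-92a-3p is also encoded on chromosome X. The 5p strand made up 87.8% ± 2.20 of the reads of Mir17, 78.7% ± 7.43 of Mir18 and 98.4% ± 0.624 of Mir20a (SD, n = 23), whereas for miR-92a the 5p strand of Mir92-1 made up only 0.434% ± 0.0894 of the reads of both strands, counting also the 3p reads from chromosome X. Of the 3 hairpins with both strands tested, none was called for a change in the ratio of its strands in any comparison (exact permutation test, two-sided, adjusted over 101 hairpins). Among all 101, the ratio was called in 0.99% in HFoleic vs. reference, in 24.8% in HFepa vs. reference and in 0% in HFepa vs. HFoleic, where 5 had an unadjusted p under 0.05. The count in HFoleic vs. reference rested on single libraries, since 1 hairpin was called with all of them, 18 without HFoleic library 9, 24 without HFoleic library 10, 5 without HFoleic library 12, 2 without HFoleic library 11 and 0 without reference libraries 3, 4 and 5. The count in HFepa vs. reference was 25 with all libraries, 20 to 28 with 1 left out and 19 without those 3.

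The nearest to a call was Mir18. Its log2 ratio of 5p to 3p was 1.46 ± 0.542 in reference and 2.16 ± 0.408 in HFoleic, a difference of 0.70 (exact p = 0.0140, adjusted p = 0.0857), and it passed only without HFoleic library 10, at 0.77, where 24 of the 101 hairpins passed. The ratio of Mir17 differed by 0.23 (exact p = 0.0971, adjusted p = 0.265), and that of Mir92-1 by -0.05 (exact p = 0.754, adjusted p = 0.869). In HFepa vs. reference the 3 differences were 0.18, 0.26 and 0.22, with exact adjusted p of 0.279 and above.

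Whether the members move together between mice of a group was examined through correlations over the 23 libraries. For each member, the deviation of its log2 CPM from the mean of its group was taken, and libraries were permuted within groups, with p adjusted over 3429 pairs of a member with any tested miRNA. Over the 36 pairs of members the median Pearson's r was 0.22, with a range of -0.38 to 0.80 and 32 positive pairs. The median over all 74305 pairs of tested miRNAs was 0.00. The pairs share libraries and are not independent, so these medians are a description.

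Of the 36 pairs, 2 were called, and both join members with the same seed and nearly the same sequence. In the whole family 0.846% of the 3429 pairs were called. The 2 miR-19 members had r = 0.80 and Spearman's rho = 0.74 (permutation, adjusted p = 0.0267 for r and 0.0343 for rho). For miR-17-5p and miR-20a-5p, r was 0.75 and rho 0.62 (permutation, adjusted p = 0.0326 for r and 0.160 for rho). Since the sequences differ by only 1 and 2 bases, the part of shared reads in these correlations was not tested.

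Single libraries weighed on both pairs. Without libraries 7 and 19, the 2 farthest from the median of miR-19a-3p, r of the miR-19 pair was 0.67. Without HFepa library 19 it was 0.66 and no longer called (permutation, adjusted p = 0.0554). Without libraries 3 and 14, the 2 farthest for miR-17-5p, r with miR-20a-5p was 0.54, and without reference libraries 3, 4 and 5 it was 0.70 (permutation, adjusted p = 0.221). The call of miR-17-5p with miR-20a-5p was also lost without library 1, 3, 4, 10, 11, 12, 13, 14, 16, 18, 19, 22 or 23 alone, with r between 0.66 and 0.76 and an adjusted p up to 0.167 (permutation). Within each group the miR-19 pair had r of 0.78 in reference, 0.78 in HFoleic and 0.92 in HFepa, and the pair of miR-17-5p with miR-20a-5p had 0.71, 0.84 and 0.72. Both pairs were thus positive in every group.

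Beyond these, members from different seed families were more loosely tied. The next highest was miR-19b-3p with miR-92a-3p at r = 0.63 and rho = 0.57 (permutation, adjusted p = 0.232 and 0.258), and r was 0.42 without libraries 13 and 19. The 2 strands of a hairpin had r of 0.34 for Mir17, 0.01 for Mir18 and 0.41 for Mir92-1, whose 3p strand is also encoded on chromosome X. The median over all pairs of members was 0.22, and none of the 3 was called. The Mir18 strands had as few as 4 reads (miR-18a-3p) and 25 reads (miR-18a-5p) in a library. The part of counting error in their r was not tested. The lowest pair was miR-18a-5p with miR-92a-3p at -0.38 (permutation, adjusted p = 0.459), and miR-92a-3p was also at -0.23 with miR-17-5p and -0.22 with miR-20a-5p. The last 2 pairs differed in sign between groups. With miR-17-5p, r was -0.50 in reference, -0.54 in HFoleic and 0.13 in HFepa. With miR-20a-5p it was -0.65, -0.75 and 0.55. Without HFepa library 19, r over all groups was -0.45 with miR-17-5p and -0.48 with miR-20a-5p, and neither was called.

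**Figure D4:**
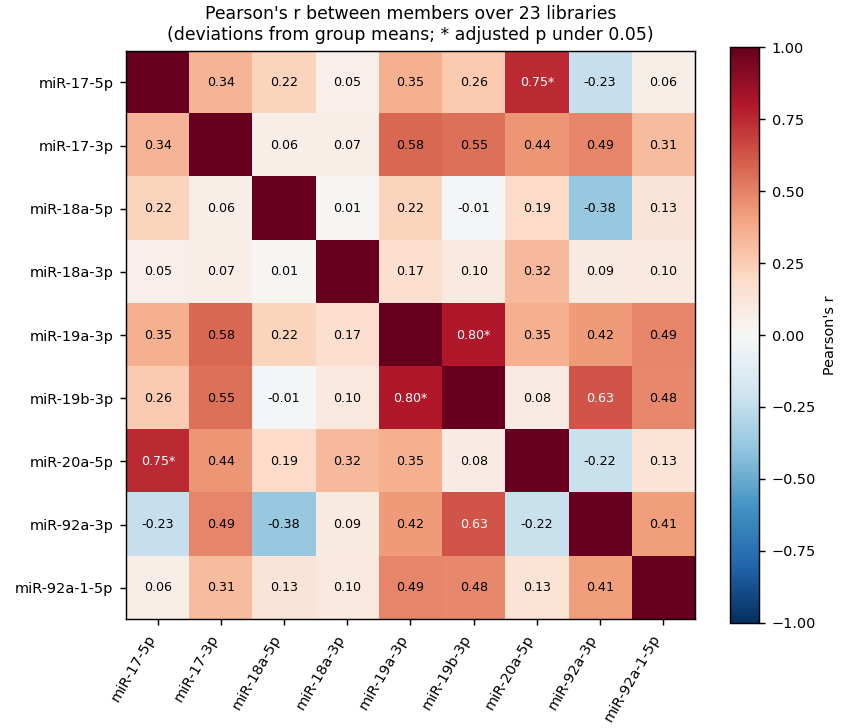
Pearson's r between each pair of the 9 tested members over 23 libraries, from deviations of log2 CPM from group means (color scale from -1 to 1); an asterisk marks an adjusted permutation p under 0.05. The marked pairs are miR-19a-3p with miR-19b-3p at 0.80 and miR-17-5p with miR-20a-5p at 0.75, and the lowest value is -0.38 for miR-18a-5p with miR-92a-3p.

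The deviations of the 9 tested members from their group means were also read library by library. In reference library 6 all 9 tested members were below their group mean, and in HFepa library 22 all 9 were above it. In HFepa library 19, 7 members were below, by up to 0.83 on the log2 scale for miR-17-3p, and the mean of the standardized deviations was -1.59, the lowest of the 23 libraries and followed by -0.78 in library 6. In 6 other libraries 8 of the 9 lay on 1 side, above the mean in libraries 2, 4, 14 and 21 and below it in libraries 7 and 13. These counts are not set beside those of all tested miRNAs in the same library. Library 19 was also the shallowest, with 3725432 counts, and had the lowest hepatocyte marker sum outside the 3 reference libraries that stand apart, at 263686 CPM, and their part in this shift was not tested.

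**Figure D5:**
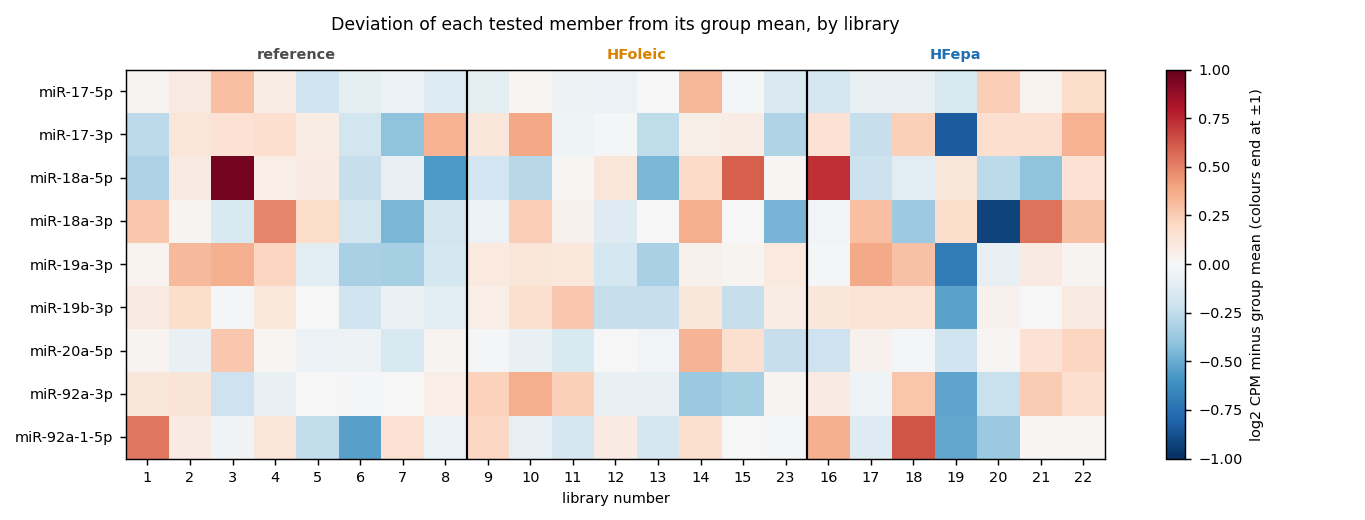
Deviation of the log2 CPM of each tested member from its group mean (color scale ending at 1 in each direction) in the 23 libraries, ordered by group and library number. Library 6 is below the mean for all 9 members, library 22 above it for all 9, and library 19 below it for 7.

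The correlations with miRNAs outside the cluster were most often called for miR-92a-3p, the member with the most reads. Of the 29 called pairs, 19 were of miR-92a-3p, none with a member, 10 positive and 9 negative. The highest, named after its values were seen, was with miR-148a-3p, an abundant hepatocyte miRNA, at r = 0.91 and rho = 0.94 (permutation, adjusted p = 0.00686 and 0.0114), and r was 0.93 without libraries 14 and 19. With deviations also taken from the mean of the library numbers 1 to 11 or 12 to 23, that r was 0.86, and it was 0.88 with library size as the only scaling. The same miR-148a-3p had r = 0.76 with miR-19b-3p (rho = 0.69, permutation, adjusted p = 0.0317 for r and 0.100 for rho, and r = 0.65 without libraries 13 and 19). Negative correlations of miR-92a-3p, called or not, included the stellate cell miRNAs miR-199a-3p (r = -0.47), miR-199a-5p (r = -0.66) and miR-214-3p (r = -0.49), also named after their values were seen. Their rho was -0.70, -0.82 and -0.58 (permutation, adjusted p of rho 0.0114 and 0.0114 for the first 2 and 0.154 for the last), whereas calls rest on r. With library size as the only scaling their r was -0.14, -0.37 and -0.20, so these negative values depend on the scaling. The list of 5 stellate cell markers also holds miR-143-3p and miR-145a-5p. Correlations of these are not given here, so the values above do not stand for the whole list.

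The guide strands with the miR-17 seed had partners in common outside the cluster. Both miR-17-5p and miR-20a-5p were called with the strands miR-24-2-5p and miR-3074-2-3p, named after their values were seen, with r from 0.72 to 0.76 (permutation, adjusted p of 0.0326 and 0.0329) and rho from 0.60 to 0.67, none of the rho called. Without libraries 3 and 14, r with miR-24-2-5p was 0.39 for miR-17-5p and 0.52 for miR-20a-5p. For miR-18a-5p the called partners were miR-130b-3p (r = 0.75), miR-23a-3p (r = 0.76) and miR-378b (r = -0.77), and without libraries 3 and 16 these were 0.55, 0.58 and -0.47. The number of called pairs of a member with any miRNA dropped from 29 to 13 without reference libraries 3, 4 and 5, and to 0 when library 19 was left out as well.

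By the mean of the standardized deviations of the 9 tested members, the miRNAs outside the cluster with the most similar pattern over the 23 libraries were miR-1291 (r = 0.66), let-7e-5p (r = 0.62), miR-25-3p (r = 0.61), miR-532-5p (r = 0.60) and miR-465c-5p (r = 0.58). The least similar were miR-3084-3p (r = -0.61), miR-107-3p (r = -0.61) and miR-103-3p (r = -0.59). Of the members themselves, miR-19a-3p was closest to the mean of all (r = 0.85), and miR-92a-3p (r = 0.43), miR-18a-3p (r = 0.37) and miR-18a-5p (r = 0.28) were the farthest from it, where each member is part of that mean. Both miR-18a strands had few reads, and the part of counting error in these values was not tested.

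The paralog clusters carry the same seeds and were compared as a list. The miR-106b~25 cluster lies in an intron of Mcm7 and brings miR-106b-5p and miR-93-5p of the miR-17 seed and miR-25-3p of the miR-92 seed, of which the latter 2 are the most abundant and are shown beside their relatives in miR-17~92.
mmu-miR-93-5p: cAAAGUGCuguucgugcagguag
mmu-miR-25-3p: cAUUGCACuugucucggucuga
The second paralog cluster, which starts with miR-106a on chromosome X, also encodes miR-19b-3p and miR-92a-3p, whose reads are not counted with it here. Of its 10 other products, 6 appeared in the table, none passed the filter and their sum was at most 3.53 CPM per library.

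In miR-106b~25, the relative of miR-92a-3p was lower in both high-fat groups. All 6 products of miR-106b~25 were tested, and miR-25-3p fell from 1134 ± 97.7 CPM in reference to 948 ± 82.0 CPM in HFoleic (log2 fold change -0.26, SE 0.0643, edgeR adjusted p = 0.0174) and 924 ± 63.4 CPM in HFepa (-0.29, SE 0.0667, adjusted p = 0.00653). Both values of miR-25-3p were just past the log2 threshold of 0.25, and with a term for library numbers 1 to 11 or 12 to 23 neither was called, at -0.14 (edgeR adjusted p = 0.478) and -0.10 (adjusted p = 0.841). The strand miR-106b-3p fell in HFoleic (-0.38, edgeR adjusted p = 0.0468), where the library number term gave -0.35 (adjusted p = 0.437), and its value in HFepa was -0.37 (adjusted p = 0.0522). The guide strands with the miR-17 seed had values of 0.09 for miR-93-5p and 0.11 for miR-106b-5p in HFoleic, and 0.04 and 0.06 in HFepa, none of which passed. In reads, miR-17-5p and miR-20a-5p made up 16.5% of all counts with their seed, most of the rest being miR-93-5p, whereas miR-92a-3p made up 85.4% of all counts with its seed.

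The choice of scaling moved the whole table and with it the sign of the small differences. With library size in place of TMM factors, the median log2 fold change of all tested miRNAs was -0.08 in HFoleic vs. reference and -0.12 in HFepa vs. reference, and the members became more negative, with 9 of 9 below 0 in HFoleic and 8 of 9 in HFepa. Then miR-18a-3p, miR-19a-3p, miR-92a-3p and miR-92a-1-5p were called in HFoleic and miR-19a-3p, miR-19b-3p and miR-92a-3p in HFepa, where 47 of all 386 miRNAs were called in HFoleic and 58 in HFepa. On this scale the log2 fold changes of miR-92a-3p were -0.34 and -0.33, and those of miR-17-5p -0.01 and 0.03.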

How the data were processed

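Small RNA libraries (TruSeq) from liver RNA were demultiplexed with bcl2fastq 2.17.1.14, per the submitters' processing notes. Per the methods, adapters were removed with the FASTX-Toolkit and reads were aligned with Bowtie in ncPRO-seq and assigned to miRBase. The genome is named inconsistently, as GRCm38.p6, mm9 and mm10, and the files hold no coordinates. The authors deposited raw counts per mature miRNA and a normalized signal, with group means of that signal, and log2 fold changes with p-values between groups. The deposited log2 fold changes, p-values and signal were not used, and all values here come from the counts. Reads have no molecular identifiers, and counting error is a lower limit of the true error.

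Groups were taken from the labels, 1 mouse and 1 library each. The filter was filterByExpr by group, scaling was by TMM, and 1 edgeR 4.0.16 quasi-likelihood fit held all 3 groups, with Benjamini-Hochberg adjustment over all tested miRNAs. The study names DEGseq, whose pooled form takes reads as replicates and was not used. Log2 CPM had a prior count of 2. Correlations used 100000 permutations within groups (random seed 20200412). Sequences and loci are from RefSeq and GENCODE (GRCm38). R 4.3.3, limma 3.58.1, DESeq2 1.42.0, vegan 2.7.1, Python 3.11.15, pandas 2.3.3, numpy 2.4.6 and matplotlib 3.10.9 were used, and each test was first tested on simulated data.

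The members, the lists and the tests were chosen with earlier results of these data known. Named were all members, their other arms, the 2 paralog clusters, called or most abundant cell type markers, and the 5 miRNAs most like and 3 least like the mean of the members. Others are marked as chosen after their values were seen. Alternatives were DESeq2, library size, upper-quartile factors, quantile normalization with limma, no filter, a fit of 2 groups, a minimum of 10 counts per library, a library number term, libraries 1 to 11 or 12 to 23 alone, thinned counts, no fold change threshold, a prior count of 0.5, Spearman's rho, other centring, and each library left out. The fits without reference libraries 3, 4 and 5, also without HFepa library 19 for correlations, were chosen after seeing the data.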

Additional observations from a re-analysis of the deposited data

Results flagged for a closer look

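In groups of 7 or 8 libraries, the highest or lowest value of a member or paralog was marked where its gap to the next library was large for the range of the group (Dixon's test at 95%). Of 51 groups examined 7 were marked, and chance marks about 1 in 20. Reference library 3 gave 4 of these, and each was its group's highest value: miR-18a-5p at 15.6 CPM (next 8.40 CPM), miR-20a-5p at 107.5 CPM (next 90.7 CPM), and, in the paralog cluster, miR-106b-5p at 49.0 CPM (next 38.0 CPM) and miR-93-5p at 972 CPM (next 826 CPM). Of these, miR-20a-5p, miR-106b-5p and miR-93-5p share the miR-17 seed. The same library stood apart by its biliary and stellate cell markers, and their part in these values was not tested.

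In HFoleic, miR-17-5p was highest in library 14 at 100.8 CPM, where the next library had 81.3 CPM. In HFepa, miR-18a-5p was highest in library 16 at 13.0 CPM (next 8.50 CPM). The lowest miR-19b-3p of HFepa was 276.5 CPM in library 19, where the next library had 402.7 CPM.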

How the results depend on the processing

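The number of members called in HFoleic vs. reference (2) was 0 with upper-quartile factors, quantile normalization with limma, no filter, only the 2 groups compared, the library number term, libraries 1 to 11 alone and without reference libraries 3, 4 and 5. It was 1 with DESeq2, at least 10 counts in every library and thinned counts, and 4 with library size. In HFepa vs. reference (1), it was 0 with quantile normalization, no filter, only the 2 groups compared, the library number term and without those 3 libraries, and 3 with library size. Leaving out each library gave 0 to 3 and 0 to 1. Called pairs of members (2) numbered 1 with centring on library numbers, with Spearman's rho and without the 3 libraries, 0 without these and library 19, and 0 to 2 with each library left out. Hairpins called by the ratio of their strands in HFoleic vs. reference (0) numbered 0 to 1 with each library left out. The cause of these shifts was not tested, and some of the fits also held fewer samples.

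Of 310 log2 fold changes of members under other settings, 285 kept their side of the threshold, 21 lost a call, 4 gained one and 27 changed sign. Of 621 with a library left out, 595 kept it, 25 lost a call, 1 gained one and 32 changed sign. No called value changed direction. Over all miRNAs, the calls in HFoleic vs. reference were 48, against 1 with the library number term, 7 with only the 2 groups compared, 10 with quantile normalization, 25 with DESeq2, 2 without the 3 libraries, 29 with no filter and 0 with libraries 1 to 11 alone. With 1 library left out they were 12 without library 5, 20 without 15, 21 without 14 and 24 without 13. In HFepa vs. reference they were 61, against 0 with the library number term, 40 with only the 2 groups, 25 with quantile normalization, 46 with DESeq2, 32 without the 3 libraries, 32 without library 22, 36 without 5 and 38 without 16 or 18. No paired analysis was possible because the labels give each mouse its own number, shared by no other group. Depth limits miR-18a-3p and miR-20a-3p, with as few as 4 and 2 reads in a library.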
